A study of Mus musculus with 3 samples.

Results

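The cells described here are the endothelial and endocardial cells of a mouse single-cell RNA-seq study of Wls, a gene needed for Wnt secretion. They were chosen by their own counts: a cell was taken when at least 3 of Cdh5, Pecam1, Tek, Emcn and Kdr had a unique molecular identifier (UMI, 1 counted RNA molecule) and the 5 genes together had at least 5. Cells with globins at 10% of UMIs or more, with 50 or more per 10000 UMIs for Myl7, Tnnt2, Ttn and Myl4 together, or with 20 or more per 10000 for Pf4 were left out. This gave 546 of 14777 cells, or 3.69%. All groups carried Mesp1-Cre, which recombines in early mesoderm and its descendants, and Ai9, a Cre-dependent tdTomato reporter, on a C57BL/6 background. Controls were Wls fl/+ and so kept 1 allele that Cre cannot remove, and mutants were Wls fl/fl. The per-cell table calls the cells wildtype or knockout, and these words were read here as the 2 labelled genotypes, an inference. Cells were labelled with lipid-linked barcodes (MULTI-seq), sorted on tdTomato and run in 3 10x Chromium v3 runs. A sample below is 1 such barcode, written Bar1 to Bar29, and whether a barcode held 1 embryo or several is not stated in the sources used here, so p-values measure only the spread between barcodes. The 22 samples were 12 controls and 10 mutants at E7.5 (1 control), E8.0 (3 controls, 3 mutants), E8.5 (2 controls, 1 mutant) and E9.5 (6 controls, 6 mutants). Tests across genes used the 13 samples with at least 20 of the cells, 7 controls and 6 mutants.

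Endothelial cells line blood vessels, and the endocardium is the endothelium of the heart tube. Both arise from mesoderm under VEGF signalling through Kdr, and VE-cadherin (Cdh5) and PECAM-1 (Pecam1) join neighbouring cells. Later the endothelium divides into arterial, venous and lymphatic kinds, part of the early endothelium gives rise to blood cells, and endocardium turns into the mesenchyme of the cardiac cushions. Wls carries lipid-modified Wnt proteins to the cell surface, so a cell without it secretes few Wnts while it can still receive them.

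Of the 546 cells, 293 came from controls and 253 from mutants. They numbered 94 in controls and 139 in mutants at E8.0, 37 and 25 at E8.5, and 160 and 89 at E9.5, with 2 at E7.5. The cells had a median of 25106.5 UMIs (range 2146 to 76493) and 5616 genes, and all other cells a median of 21621 UMIs. Summed over a sample, depth ran from 481026 to 1621951 UMIs among the 13 samples tested. Run 3 was shallower, with a median of 11866 UMIs per cell against 23112 in run 1 and 23555 in run 2. No cell barcode of these cells occurred in more than 1 run, against 23 over all cells. The share of sex-linked UMIs that were male-type was 0.948 to 0.964 in the 3 E8.0 mutants and 0.0637 to 0.517 in the 3 E8.0 controls, so sex and genotype cannot be told apart at E8.0. At E9.5 it was 0.945 in mutant Bar19, 0.0664 in mutant Bar20 and 0.0517 to 0.0578 in the 3 controls tested.

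The marker counts lay close to the threshold in part of the cells. Of the 546, 170 had 3 of the 5 markers, 182 had 4 and 194 had all 5. The sum of the 5 had a median of 22, and 31 cells stood at exactly 5. Just outside, 49 cells had 3 or more markers with a sum of 4 or less, and 405 had only 2 markers with a sum of 5 or more. A further 12 cells met the marker counts but not the limits, 6 for globins, 5 for cardiomyocyte genes and 1 for Pf4.

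The label was checked with 25 pan-endothelial genes the rule did not use, among them Cldn5 (a tight-junction protein), Ramp2 (a co-receptor for adrenomedullin) and the transcription factors Sox18, Erg and Fli1. Their summed level per cell had a peak near 0 and a broad one at higher levels, with few cells between. At a level of 15 per 10000 UMIs, set after the values were seen, 431 cells were at or over it, with a median of 61.3 per 10000 UMIs and 19 of the 25 genes detected. The other 115 cells, 21.1%, were under it, with a median of 3.08 and 4 genes detected, against 1.83 and 2 genes in all other cells. Only 23 cells lay between 8 and 20 per 10000. The low cells met the rule narrowly, since 104 of the 115 had just 3 markers and their median marker sum was 7, against 27 in the high cells. Their depth was not lower, with a median of 28502 UMIs against 23977. On these genes the label held for 431 cells and not for 115, and in the results that follow a ratio in the high cells of the samples compared is given for the genes described where it bears on the result. Those values are descriptions with no test. Another 115 cells outside the rule also reached the level, 99 of them within the limits.

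**Figure D1:**
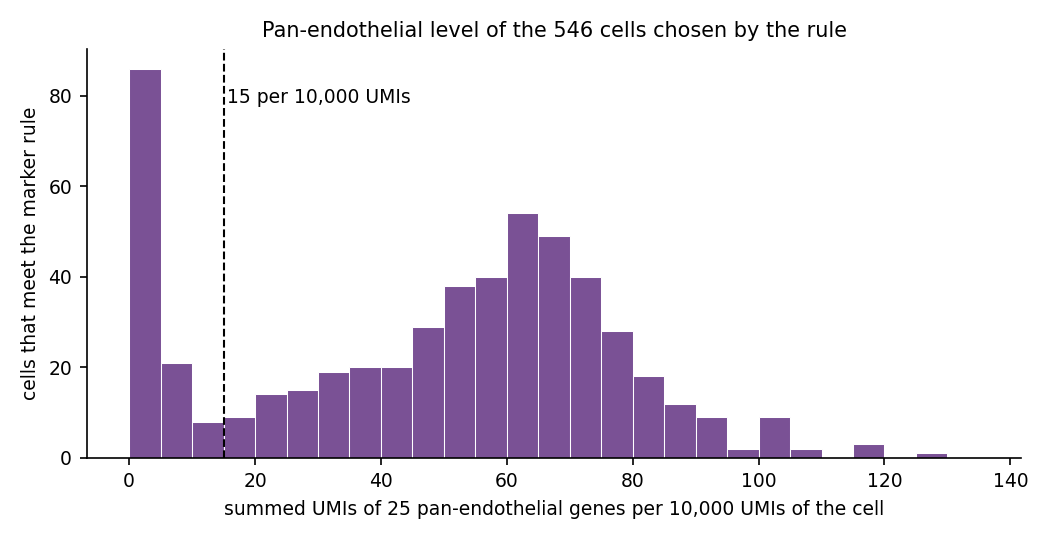
Distribution over cells of the summed level of 25 pan-endothelial genes not used by the rule, per 10000 UMIs, for the 546 cells, with the number of cells in each bin on the y axis. The dashed vertical line is the level of 15, with 431 of the 546 cells at or over it and 115 under it.

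The 115 cells low in pan-endothelial genes were spread unevenly over samples. At E8.0 they made up 26.7%, 51.9% and 29.7% of the cells in controls Bar24, Bar26 and Bar29, and 47.6%, 13.1% and 15.8% in mutants Bar25, Bar27 and Bar28. At E9.5 they made up 25%, 27.3% and 2.56% in controls Bar22, Bar23 and Bar9, and 29.3% and 38.1% in mutants Bar19 and Bar20. At E8.5 none of the 35 cells of control Bar3 was low and 12% were low in mutant Bar1. Genotypes overlapped at E8.0, and at E9.5 these 2 mutants lay above all 3 controls, while mutant Bar21, with 19 cells, was at 21.1%. Summed levels of most other lineage lists were higher in these cells than in the 431. Mesenchyme and lateral plate markers were at 832 against 123 UMIs per 1000000 (CPM). Endoderm and epithelium markers were at 1614 against 76.6 CPM. Nearly all of the 1614 CPM came from the keratins Krt8 (936.5 CPM) and Krt18 (657 CPM). Neural markers went the other way, at 24.7 against 75.1 CPM.

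Against all other cells of the same samples, the chosen cells were higher in most pan-endothelial genes the rule did not name. Values here are means over the 13 samples tested. With 5 CPM added to both sides, 24 of the 25 pan-endothelial genes were higher by at least 1 on the log2 scale, with a list median of 3.59. The background was 424 of 6853 genes, or 6.19%, with a median of 0.03 over all of them. Cldn5 had a mean of 407 CPM in these cells and 1.63 CPM in the others, Icam2, an adhesion molecule for leukocytes, 124 and 0.472 CPM, and Flt4, the receptor for VEGF-C, 113 and 1.30 CPM. Of 14 vascular basement membrane genes 10 were higher by that margin, of 10 venous and lymphatic genes 7, of 13 early vascular and haemogenic genes 8, of 15 arterial genes 5 and of 16 endocardial genes 3. All 12 cardiomyocyte markers and all 11 primitive red blood markers were lower by the margin, which the rule fixed in part, since it removed cells high in Myl7, Tnnt2, Ttn and Myl4 or in globins. The rule chose the cells by genes of the same counts, so no test was made.

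Clustering divided the cells into 12 groups (Leiden, resolution 1; 9 groups at 0.5 and 16 at 1.5), described by the genes that lead them, with no test. Cluster 11 was endocardial-like, with 17 cells from 7 samples. It had 12 of the 16 endocardial markers raised by at least 1 on the log2 scale over the remaining cells, among them Nfatc1, Npr3, Gata4, Gata5, Tbx20 and Hapln1, and a summed level of 2472 against 844 CPM. The background in this cluster was 418 of 7052 genes raised by that margin (5.93%), among genes at 20 CPM or more in the cluster or the remaining cells. Of the endocardial markers 15 reached 20 CPM, the 12 raised ones among them, and the median log2 ratio of the list was 1.97 against -0.05 over all 7052 genes. The cluster's cells were shallow, with a median of 15402 UMIs. Adgrg6, an adhesion receptor of the endocardium, reached 96.3 CPM against 0.724, and Tmem100, a target of BMP signalling in endothelium, 85.2 against 3.40 CPM. The arterial genes Gja4 (371 against 34.6 CPM) and Bmx (88.9 against 0.0724 CPM) were also among its leading genes, with 6 of 15 arterial genes raised and a list median of 0.55. The same cells had 8 of 15 BMP signalling genes raised, 7 of the 12 at 20 CPM or more, with a list median of 1.32. They also had Cdkn1c, an inhibitor of cyclin-dependent kinases, at 6866 against 269 CPM.

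The endocardial-like cells came from E8.5 and E9.5 only, and none of the 233 cells of E8.0 was among them. Controls contributed 16 of the 17: 4 in Bar3 at E8.5, and 5 in Bar9, 3 in Bar22, 2 in Bar7, 1 in Bar23 and 1 in Bar4 at E9.5. The single mutant cell was in Bar10 at E9.5. Mutants Bar19, Bar20, Bar21 and Bar1 held none among 41, 21, 19 and 25 cells, counts that allow shares of up to 7.32%, 14.3%, 15.8% and 12%. Those limits lie above the 5.36% of Bar22 and the 2.27% of Bar23, controls of the same run as Bar19, Bar20 and Bar21, so a difference from them was not detectable with this many cells. Bar9 of run 3 stood at 12.8%. No endocardial marker passed the genotype tests below. Summed over all chosen cells of a sample, the endocardial markers stood at 888, 893 and 1003 CPM in controls Bar22, Bar23 and Bar9. In mutants Bar19 and Bar20 they stood at 967 and 994 CPM, with overlap. At E8.5 the sums were 1062 CPM in control Bar3 and 1081 CPM in mutant Bar1, so the list did not follow the cluster counts.

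Most other clusters were high in pan-endothelial genes and are named here by their leading genes. Cluster 1 (90 cells, mostly E9.5) was led by Clec1b, Vwa1, Pcdh17 and Col15a1. Cluster 8 (39 cells, 38 from E8.0) was led by Lyve1 and Mrc1, both carried by lymphatic endothelium and by macrophages, and by Gpr182 and Oit3. Cluster 4 (59 cells, 57 from E8.0) was led by Cck, Tbx4, Jag1 and the posterior gene Hoxa9. Cluster 2 (76 cells) was led by C1ql2 and held Prox1 and Etv2 among its leading genes, Etv2 being the ETS factor that starts the endothelial programme. Cluster 3 (68 cells) was led by Adm, Ndufa4l2, Pde4b and Stab1, and 12 of 25 low-oxygen genes were raised in it, 11 of the 22 at 20 CPM or more, against 182 of 6936 genes in all (2.62%). Cluster 5 (47 cells) was led by C1ql2, Mmp9 and histone genes. Its leading genes also held the endocardial marker Hapln1, at 916 against 379 CPM. All its cells but 1 came from run 2 (17 in Bar1, 15 in Bar3, 12 in Bar4 and 2 in Bar2). The cluster cannot be told apart from that run.

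Clusters 6, 7, 9 and 12 held 132 cells, of which 108 were low in pan-endothelial genes. Cluster 6 (46 cells) was mesenchyme-like, with 7 of 9 mesenchyme and lateral plate markers raised, 6 of the 8 at 20 CPM or more, against 197 of 7000 genes in all (2.81%). Cluster 7 (45 cells) was led by the keratins Krt18 and Krt8, by Hand1 and by the smooth muscle actin Acta2. Cluster 12 (17 cells) was led by the matrix genes Lum, Postn and Col1a1. Cluster 9 (24 cells) was led by Plek, Fermt3, Runx1 and Gata1, genes of platelets and of blood formation.

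**Figure D2:**
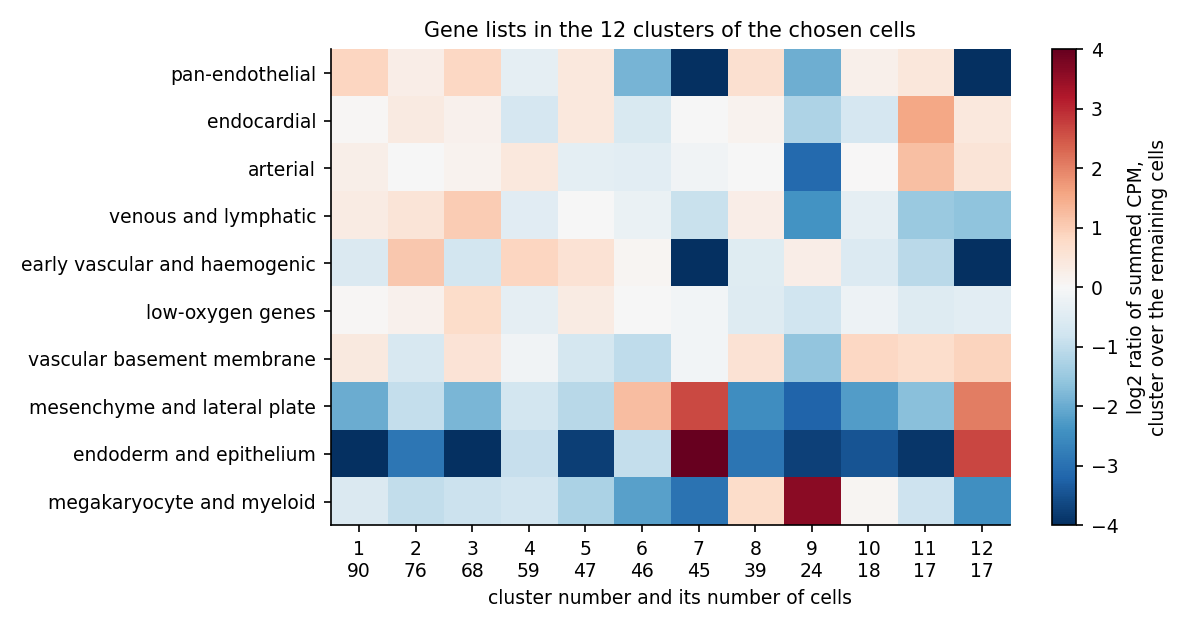
Clusters of the 546 cells (columns, with their number of cells) against gene lists (rows), coloured by the log2 ratio of the list's summed CPM in the cluster to that in the remaining cells, with colours ending at 4 in either direction. Cluster 11 has the largest endocardial ratio, and clusters 6, 7, 9 and 12 have the lowest pan-endothelial ratios.

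The genotype was read first from Wls itself (3:159839672-159938664, plus strand, GRCm38). In controls Wls stood at 44.3, 61.5 and 37.8 CPM at E8.0 (Bar24, Bar26, Bar29), 28.3 CPM at E8.5 (Bar3) and 42.9, 38.7 and 27.6 CPM at E9.5 (Bar22, Bar23, Bar9). In mutants it stood at 6.91, 2.51 and 1.23 CPM at E8.0 (Bar25, Bar27, Bar28), 1.46 CPM at E8.5 (Bar1) and 2.49 and 0 CPM at E9.5 (Bar19, Bar20). No control overlapped with a mutant at any stage, and the labels and this gene go together in all 13 samples. Wls fell by 4.19 on the log2 scale over all stages (SE 0.314, edgeR quasi-likelihood test with Benjamini-Hochberg adjustment, adjusted p = 6.14e-06). With 0 UMIs of 481026, Bar20 gives only a limit, so the fitted value is not read as a fold. At E9.5 the log2 ratio of group means, with 5 CPM added, was -2.73 over the 201 cells of the 5 samples tested and -2.18 over the 154 of these that were high in pan-endothelial genes.

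The share of cells that met the rule did not separate the genotypes. At E8.0 it was 8.17%, 4.40% and 6.51% in controls and 5.36%, 8.70% and 10.2% in mutants, or 6.36% ± 1.89 (SD, n = 3) and 8.08% ± 2.47 (SD, n = 3). At E9.5 it was 2.73% ± 0.228 (SD, n = 5; range 2.44% to 3.01%) in controls and 2.33% ± 1.58 (SD, n = 6; range 0 to 4.75%) in mutants. At E8.5 it was 5.88% (2 of 34 cells) and 1.40% in controls and 5.13% in the mutant. The genotypes overlapped at every stage. Over the 20 samples of E8.0 to E9.5 with at least 20 cells in all, the mean difference was 0.0042 in log2 odds, mutant minus control, with p = 0.989 in a two-sided exact permutation test within stage and run (7200 assignments). With every cell thinned to 5000 UMIs the difference was 0.46 (exact permutation p = 0.125), and in run 1 alone 0.33 (exact permutation p = 0.21), both toward a higher share in mutants. The lowest mutant, with 0 of 57 cells, allows a share of up to 5.26%, which covers every E9.5 control.

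The share was lower at E9.5 than at E8.0. The E8.0 samples ranged from 4.40% to 10.2%, and of 11 samples at E9.5 only Bar19, at 4.75%, exceeded the lowest of them. The difference was -1.55 in log2 odds (p = 0.000213, exact permutation test within genotype, two-sided, the smallest p that 4704 assignments can give; Benjamini-Hochberg adjusted over 6 share tests 0.00128). It held in direction in controls alone (-1.21, exact permutation p = 0.0179) and in mutants alone (-1.88, exact permutation p = 0.0119). The median depth was 26837.5 UMIs per cell at E8.0 and 19128 at E9.5, and with every cell thinned to 5000 UMIs the difference was -0.53 (exact permutation p = 0.0778), so the call ended. The tdTomato sort sets the total over which each share is taken, and fewer endothelial cells cannot be told apart from more of the other sorted cells.

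**Figure D3:**
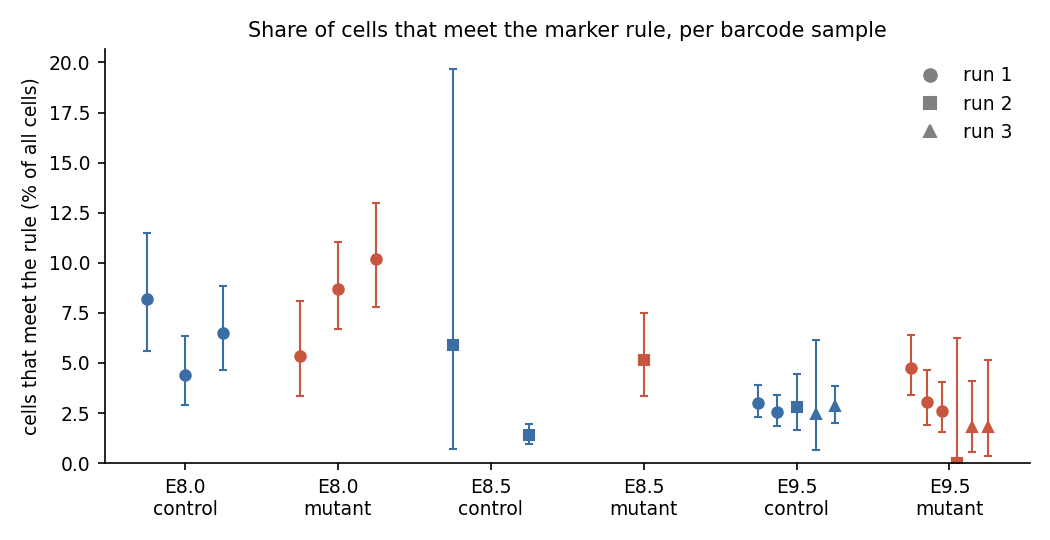
Percent of all cells in each barcode sample that met the rule (y axis) by stage (x axis), with controls in blue, mutants in red, 1 point per sample of at least 20 cells, the run as the symbol and 95% exact binomial intervals as bars, which cover counting error only. Genotypes overlap at E8.0 and E9.5, and E9.5 samples lie mostly below those of E8.0.

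At E9.5 the mutant endothelial cells had higher levels of genes known to rise when oxygen is low. Of 9553 genes tested 38 passed (0.398%), 34 of them higher in mutants (0.356%) and 4 lower (0.0419%). An unadjusted p under 0.05 was found for 1148. Of the 25 low-oxygen genes 23 were tested and 7 passed, all higher: Ddit4, Ndrg1, Ier3, Egln3, Ankrd37, Slc2a1 and P4ha2. All 23 fitted values were positive, with a median of 1.26 on the log2 scale against 0.02 over all genes tested. This list was chosen with earlier results of these data known, so its counts describe the mutants and are not independent evidence. Over all stages none of the 23 passed, again with all 23 values positive and a median of 0.78. At E9.5 the comparison within run 1 rests on controls Bar22 and Bar23 and mutants Bar19 and Bar20, since Bar9 was the only E9.5 sample of run 3 with enough cells. The samples tested also differed in their clusters, which were made from the same counts. Cluster 3, where low-oxygen genes were raised, held 8 of 56, 7 of 44 and 1 of 39 cells in controls Bar22, Bar23 and Bar9. In mutants Bar19 and Bar20 it held 15 of 41 and 5 of 21. Cluster 1 held 16, 10 and 29 cells of these controls and 5 and 3 of these mutants. The part of this in the result was not tested. Leaving out Bar23, Bar19 or Bar20 in turn moved the count to 70, 270 and 538, the last 2 with a lone mutant assumed to vary like the controls.

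Ddit4, a stress-induced inhibitor of mTORC1, stood at 10.9, 9.90 and 25.7 CPM in controls Bar22, Bar23 and Bar9 and at 75.9 and 70.7 CPM in mutants Bar19 and Bar20 (fitted log2 difference 2.82, SE 0.283, edgeR adjusted p = 0.00212). Ier3, an early-response gene that modulates cell death, stood at 16.4, 5.40 and 13.8 CPM in controls and 111 and 119 CPM in mutants (3.31, SE 0.339, edgeR adjusted p = 0.00212). Egln3, a prolyl hydroxylase that marks HIF factors for breakdown and is itself HIF-induced, stood at 19.8, 17.1 and 19.7 CPM in controls and 80.9 and 79.0 CPM in mutants (2.12, SE 0.253, edgeR adjusted p = 0.00487). In each of these genes both mutants lay above all 3 controls, and within run 1 alone the log2 ratios of group means (5 CPM added) were 2.35 for Ddit4, 2.91 for Ier3 and 1.86 for Egln3. Ankrd37, an ankyrin-repeat gene induced by HIF, followed the same order, at 18.4, 15.3 and 35.5 CPM in controls and 105 and 60.3 CPM in mutants. Ndrg1, a stress-response gene, was at 12.9, 9.90 and 7.89 CPM in controls and 75.9 and 41.6 CPM in mutants. Glucose entry genes moved with them: Slc2a1 (GLUT1) was at 325, 335 and 223 CPM in controls and 777 and 590 CPM in mutants, and Slc2a3 (GLUT3), not on the list, at 48.4, 40.5 and 35.5 CPM against 259 and 137 CPM. Bar19 had the higher value of the mutants in Ankrd37, Ndrg1, Slc2a1 and Slc2a3. P4ha2, a collagen prolyl hydroxylase, passed in 5 of 12 alternative settings, of which 3 left 1 mutant sample with no spread of its own.

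The ratios of these genes were alike when only the 154 cells high in pan-endothelial genes were counted in the same 5 samples. Among them the log2 ratio of group means, with 5 CPM added, was 2.11 for Ddit4, 3.39 for Ier3, 2.12 for Egln3, 1.98 for Ankrd37, 2.05 for Ndrg1, 1.07 for Slc2a1, 2.42 for Slc2a3 and 1.45 for P4ha2. In all 201 cells the same ratios were 1.93, 2.83, 1.83, 1.64, 2.06, 1.20, 2.13 and 1.57. Adm, the vasodilator adrenomedullin, missed the threshold (edgeR adjusted p = 0.0608) at 8.18, 9 and 3.95 CPM in controls and 85.9 and 20.8 CPM in mutants.

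At E8.0 none of 20 low-oxygen genes tested passed, and their median was 0.10. Ddit4, for example, was at 5.91, 14.5 and 29.2 CPM in E8.0 controls and 13.8, 19.5 and 33.3 CPM in mutants, and Egln3 at 22.7, 29.0 and 38.6 CPM against 24.2, 37.1 and 33.9 CPM, with overlap in both. At E8.5 there was 1 sample a genotype with enough cells and no test, and mutant Bar1 had the higher level in these genes. Slc2a3 was at 121 CPM in Bar1 (95% exact Poisson interval 96.2 to 150) and 13.1 CPM in Bar3 (6.75 to 22.8), Ddit4 at 52.4 (36.7 to 72.5) and 9.79 CPM (4.48 to 18.6), and Egln3 at 82.9 (62.8 to 108) and 32.6 CPM (22 to 46.6). These intervals cover counting error only. A test of whether the genotype effect differed between these stages covered 10861 genes and none passed (0%; smallest adjusted p = 0.392 in edgeR, 791 at an unadjusted p under 0.05, 4 genes by DESeq2), so the effect is not shown to differ between the stages.

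The promoters of the low-oxygen genes that passed are shown for the letters of the HIF core, ACGTG on either strand (CACGT when read on the other). In the RefSeq promoter table of GRCm38.p6, which covers 250 bases before to 50 after each start site, 6447 of 32851 promoters (19.6%) hold it. Among low-oxygen genes it was in 21 of 32 promoter entries, which belong to 22 genes, and all 6 of the genes that passed and had an entry held it in at least 1. The windows below run 5′ to 3′ on the gene's strand, with the core in capitals, and 1 is shown per gene. Ankrd37 holds a second core 6 bases before a start site, and P4ha2 a second 10 bases after one. A match describes the letters and is not evidence of binding.
Ddit4: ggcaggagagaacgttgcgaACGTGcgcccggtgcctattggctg
Ier3: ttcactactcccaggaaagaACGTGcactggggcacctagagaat
Egln3: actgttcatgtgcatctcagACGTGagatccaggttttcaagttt
Ankrd37: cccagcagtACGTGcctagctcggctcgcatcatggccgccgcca
Slc2a1: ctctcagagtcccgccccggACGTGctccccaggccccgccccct
P4ha2: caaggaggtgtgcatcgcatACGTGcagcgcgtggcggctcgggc
The Ddit4 window is chr10:59951933-59951977 on the minus strand, with the core 187 bases before the start site. Ier3 is chr17:35821491-35821535 (plus, 202 bases), Egln3 chr12:54204079-54204123 (minus, 229 bases) and Ankrd37 chr8:46000056-46000100 (minus, 241 bases). Slc2a1 is chr4:119108689-119108733 (plus, 36 bases) and P4ha2 chr11:54100826-54100870 (plus, 78 bases).

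Flt1, Cyp26b1 and Pde4b were also higher in the E9.5 mutants. Flt1, a decoy receptor for VEGF and the 1 pan-endothelial gene of 24 tested that passed, stood at 134, 119 and 199 CPM in controls and 281 and 318 CPM in mutants (fitted log2 difference 1.25, SE 0.156, edgeR adjusted p = 0.00487). Cyp26b1, which breaks down retinoic acid, stood at 6.81, 5.40 and 17.8 CPM in controls and 29.9 and 154 CPM in mutants (3.76, SE 0.681, edgeR adjusted p = 0.0406), with Bar20 far above Bar19. Pde4b, a phosphodiesterase of cyclic AMP, stood at 18.4, 19.8 and 21.7 CPM in controls and 99.6 and 83.2 CPM in mutants (2.29, SE 0.248, edgeR adjusted p = 0.0026). Both mutants exceeded every control in all 3 genes. Among the cells high in pan-endothelial genes the log2 ratios were 1.35 for Flt1, 3.43 for Cyp26b1 and 2.28 for Pde4b, above the 0.97, 2.69 and 1.95 in all cells of the same samples. Flt1 is itself on the list that defined the high cells, so its ratio there depends in part on that split. Sparcl1, a matrix glycoprotein, and Vldlr, a lipoprotein receptor, also passed, with ratios of 2.08 and 1.97 in the high cells. Mutant Bar21, which had 19 cells and stayed out of the test, was at 105 CPM of Cyp26b1, 125 CPM of Ddit4 and 108 CPM of Pde4b among its high cells. With the high cells of Bar21 and of control Bar4 added, the ratio was 1.12 for Flt1 and 3.46 for Cyp26b1. It was 2.21 for Pde4b and 1.94 for Ddit4.

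Another set of the genes that passed had its highest levels in the cells low in pan-endothelial genes. Postn, Col1a1, Col1a2 and Col3a1, which encode matrix proteins of mesenchyme, Acta2 and Tagln of the smooth muscle cytoskeleton, and the keratins Krt8 and Krt18 all passed as higher in mutants. Col1a1 was at 102, 228 and 9.87 CPM in controls and 467 and 817 CPM in mutants (fitted log2 difference 1.98, SE 0.323, edgeR adjusted p = 0.0253). Its level was 547 CPM in the 115 low cells of all stages and 12.9 CPM in the 431 high cells. In all cells of the 5 samples the log2 ratio of mutant to control was 2.45 for Col1a1, 2.81 for Postn, 2.14 for Acta2, 1.37 for Krt18, 1.44 for Col3a1 and 2.03 for Col1a2. Among the high cells it was 0.74, 0.85, 0.39, 0.29, -0.31 and 0.13. Within run 1 alone the ratios were 1.93, 2.32, 1.64, 0.90, 1.00 and 1.55 in all cells. In the high cells of run 1 they were 0.81, 1.13, 0.40, 0.49, -0.46 and 0.42. Over the 5 samples the ratio for Krt8 was 1.28 in the high cells against 1.88 in all, and for Tagln 0.65 against 2.32. With few UMIs of these genes in the high cells the ratios moved with the samples: adding the high cells of Bar4 and Bar21, which had too few cells for the test, gave -0.41 for Col1a2, 0.02 for Col3a1, 0.27 for Postn and 1.39 for Tagln. Of the 38 genes that passed, 19 were over 2 times higher in the low than in the high cells, 16 of them higher in mutants. The part of those cells in the result was not tested. In the 154 high cells 36 of the 38 kept their sign, Col3a1 and Plagl1 (-0.10) being the others, and 18 of the 36 had a ratio of at least 1 in size. These 154 are part of the cells tested, so agreement in sign was partly fixed beforehand.

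**Figure D4:**
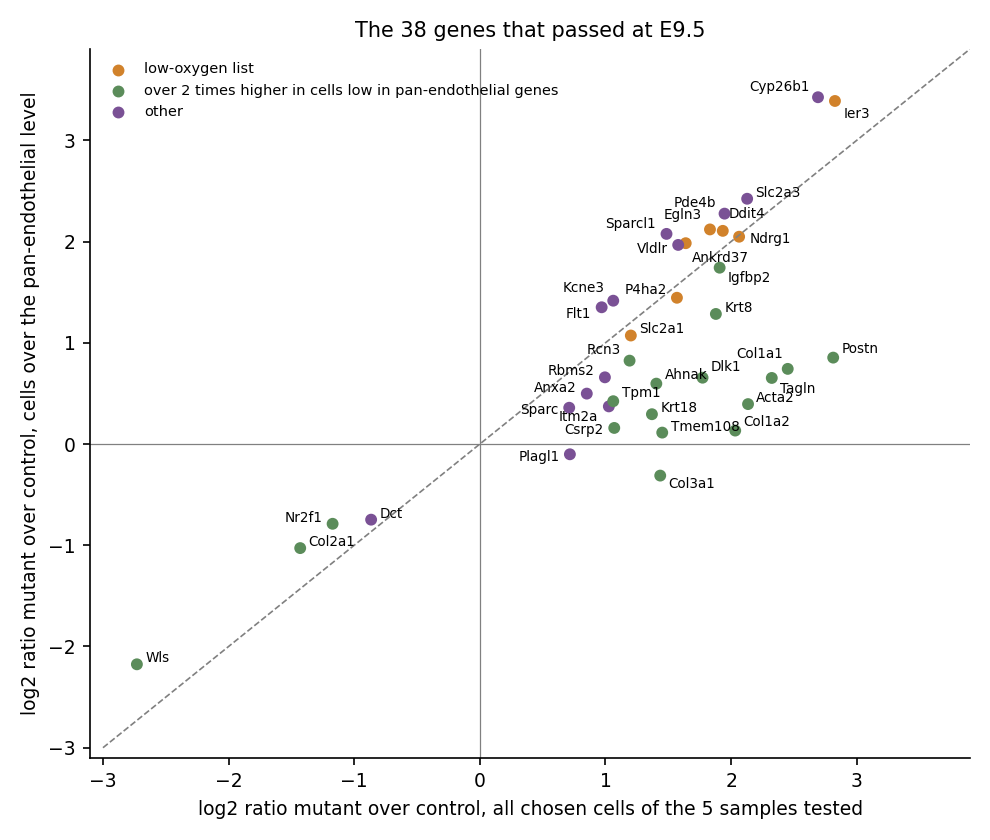
The 38 genes that passed between genotypes at E9.5, with the log2 ratio of mutant to control means (5 CPM added) in all 201 cells of the 5 samples tested on the x axis and in the 154 of them high in pan-endothelial genes on the y axis. Points near or above the diagonal, such as Ier3 and Cyp26b1, keep their ratio, and points near the horizontal zero line, such as Acta2 and Col1a2, lose most of it.

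In the other sorted cells, which come from the same samples and libraries, the E9.5 log2 ratios were 2.83 for Ddit4, 2.05 for Ier3, 1.38 for Egln3 and 1.99 for Slc2a3. For Flt1, Pde4b and Kcne3 the ratios there were 0.18, 0.11 and 0.03, and for Sparcl1 it was -0.86. Flt1, Pde4b and Kcne3 lay near or under the added 5 CPM in the other cells of all stages, at 5.14, 3.72 and 0.462 CPM. That addition holds their ratios near 0, so these are not read as a lack of change. The test of the difference itself, over all stages and 16968 genes, gave no gene (0%; smallest adjusted p = 0.184 in edgeR, 703 at an unadjusted p under 0.05, 1 gene by DESeq2), so none of these effects is shown to be particular to endothelial cells.

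Over all stages together Wls was the only gene of 10394 that passed (0.00962%), and 965 had an unadjusted p under 0.05. DESeq2 called 18. At E8.0 4 of 8901 genes passed (0.0449%), 1 higher in mutants (0.0112%) and 3 lower (0.0337%): Wls, Xist, the RNA of X inactivation in female cells, the ribosomal gene Rpl34 and 2810403D21Rik. No pan-endothelial, endocardial, arterial, venous, haemogenic or Notch gene passed at E8.0 or over all stages. None of 11 Wnt/beta-catenin target genes tested passed over all stages, with a median of -0.02. Axin2, a feedback inhibitor and common readout of the pathway, was at 17.7, 12.1 and 11.8 CPM in E8.0 controls and 12.1, 8.16 and 12.9 CPM in E8.0 mutants, and at 10.9, 14.4 and 3.95 CPM against 17.4 and 8.32 CPM at E9.5. Control and mutant values overlapped at both stages.

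Vascular basement membrane genes had a common sign over all stages but no call. The 14 basement membrane genes summed to 1820, 1724 and 1765 CPM in E8.0 controls and 2280, 2918 and 2307 CPM in E8.0 mutants. At E9.5 they summed to 2241, 2161 and 2534 CPM in controls and 3228 and 3089 CPM in mutants. Neither stage had overlap between genotypes in these sums. The same was true of the venous and lymphatic sums and of the cell cycle sums, and at E9.5 of the arterial sums. With so few samples, separation of a sum is therefore not particular to the basement membrane. In the high cells alone they were 2084, 2515 and 1983 CPM in E8.0 controls and 2627, 3155 and 2444 CPM in E8.0 mutants, which overlapped. At E9.5 they were 2479, 2402 and 2539 CPM against 3228 and 3373 CPM in the high cells, with no overlap. The arterial, venous and lymphatic, and cell cycle sums were also apart in the high cells at E9.5. Pan-endothelial genes had mostly the same sign, with 22 of 24 values positive over all stages (median 0.24) and 20 of 23 at E8.0 (median 0.34), none passing. At E9.5 17 of 24 were positive, with a median of 0.07, and Flt1 passed. At E8.0 the share of low cells was 47.6%, 13.1% and 15.8% in mutants Bar25, Bar27 and Bar28 and 26.7% to 51.9% in controls, and its part in the E8.0 sums was not tested. Over all stages all 14 fitted values were positive, with a median of 0.43 against 0.01 for all genes tested, and none passed, while Sparc, a collagen-binding matrix protein, passed at E9.5 (0.75, SE 0.129, edgeR adjusted p = 0.0312). In the cells high in pan-endothelial genes the Sparc ratio was 0.36 against 0.71 in all. The 14 cell cycle genes had no positive value over all stages, with a median of -0.23 and none passing. None of the 6 megakaryocyte and myeloid genes tested had a positive value either, with a median of -0.73 and none passing. Over all genes tested 50.9% had a positive value. At E9.5 alone 2 of 3 megakaryocyte and myeloid genes tested were positive, with a median of 0.28. That list includes Pf4, which the rule limited, and control Bar26 had its highest sum, at 221 CPM.

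Some pan-endothelial genes passed as higher at E9.5 than at E8.0. Of 9628 genes tested 857 passed (8.90%), 518 higher at E9.5 (5.38%) and 339 lower (3.52%), in a fit with genotype as a term. E8.0 was sampled in run 1 only, while E9.5 also included Bar9 of run 3. Of 24 pan-endothelial genes tested 10 rose and 1 fell, with a median of 0.55 against 0.00 for all genes. Cldn5 had a lowest, median and highest value of 108, 152 and 433 CPM over the 6 E8.0 samples and stood at 722, 651, 705, 505 and 372 CPM in Bar22, Bar23, Bar9, Bar19 and Bar20 at E9.5 (fitted log2 difference 1.59, SE 0.307, edgeR adjusted p = 0.0047). Clec14a, a vessel lectin, went from a median of 4.17 CPM (0 to 15.7) to 22.5, 25.2, 47.4, 18.7 and 81.1 CPM (2.58, SE 0.527, edgeR adjusted p = 0.0065). Icam2, Cd34, Cd93, S1pr1 (the sphingosine-1-phosphate receptor), Plvap, Mmrn2, Gng11 and Ets1 rose with them. Tal1, a factor of early blood and endothelial specification, fell by 1.04 on the log2 scale, from a median of 141 CPM to 81.8, 82.8, 55.3, 46.1 and 79.0 CPM. The E8.0 and E9.5 samples overlapped for Cldn5 through Bar27 and Bar20, and not for Clec14a or Tal1. Emcn, one of the 5 genes of the rule, stood at 58.3 to 98.9 CPM at E8.0 and at 240 to 549 CPM at E9.5. Its counts helped to choose the cells, so no stage result is read from it. A level that differs between stages can move the number of cells that meet the rule.

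The venous and lymphatic genes Nr2f2 and Stab1 rose with stage. Of 9 venous and lymphatic genes tested all 9 had a positive value and 2 passed, where 5.38% of all genes tested passed as higher. Nr2f2 (COUP-TFII), which sets venous identity, went from a median of 123 CPM (65.1 to 149) to 335, 272, 180, 245 and 189 CPM (1.19, SE 0.191, edgeR adjusted p = 0.0014). Stab1, a scavenger receptor of sinusoidal and lymphatic endothelium, rose by 1.61 on the log2 scale. No E9.5 sample overlapped with E8.0 in either gene. Among the genes of any list or none with the largest rises, Gimap6 went from a median of 8.40 CPM to 136, 98.1, 122, 46.1 and 70.7 CPM, Clec1b from 8.97 to 114, 119, 158, 79.7 and 85.2 CPM (log2 ratio 2.82, and 2.56 in the high cells of the same samples), and Col15a1, a basement membrane collagen, from 1.85 to 38.2, 41.4, 39.5, 19.9 and 31.2 CPM. Cyp26b1 rose from 0 CPM in 4 of the 6 E8.0 samples, with 3.45 CPM the highest, to the E9.5 values given above.

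Few endocardial and arterial genes passed with stage, and they did so in both directions. Over all genes tested 5.38% rose and 3.52% fell. Of 13 endocardial genes tested 2 rose and 1 fell. Npr3, the natriuretic peptide clearance receptor, went from 4.92 to 14.2 CPM at E8.0 to 14.3, 26.1, 33.6, 41.1 and 64.5 CPM at E9.5 (1.73, SE 0.318, edgeR adjusted p = 0.0035), and Plxnd1, a semaphorin receptor, rose by 0.99 on the log2 scale. Nrg1, the endocardial ligand that drives trabeculation, fell by 1.41, from a median of 21.7 CPM to 2.73, 10.8, 9.87, 7.47 and 18.7 CPM, and its stages overlapped, with a log2 ratio of -0.94 in all cells and -1.24 in the high cells. Of 11 arterial genes Efnb2, the arterial ephrin, rose by 1.05, and the connexin Gja4 and the Notch ligand Jag1 fell by 1.07 and 1.64. Jag1 at E8.0 ranged from 8.64 CPM in Bar25 to 102 CPM in Bar27, so the fall rests on the samples with high values, and it passed in 7 of the 21 alternative settings. Of 10 Notch genes Hes1 (0.56) and Mfng (0.90) rose and Jag1 fell.

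Spi1 (PU.1), the master factor of myeloid cells, fell from E8.0 to E9.5. Of 11 early vascular and haemogenic genes tested 10 had a negative value, with a median of -0.69 against 0.00 for all genes. Spi1 alone passed, where 8.90% of all genes tested passed in either direction and 3.52% as lower. No fall of the list is read from 1 gene. Spi1 was at 3.14 to 48.3 CPM at E8.0 and 2.04, 0, 0, 0 and 0 CPM at E9.5. These are too few UMIs for its fitted value to be read as a fold. Outside the list, Alox5ap and Was, genes of blood cells, and Adgrg1, a receptor of blood stem cells, were among the largest falls. Cluster 9, led by genes of platelets and blood formation, had 21 of its 24 cells at E8.0 and 3 at E9.5, and its part in these falls was not tested. Ifitm1 fell from a median of 211 CPM to 44.3, 80.1, 11.8, 89.6 and 85.2 CPM, and Emb, which encodes embigin, from 147 to 49.1, 46.8, 27.6, 37.4 and 70.7 CPM, neither with overlap. The log2 ratio for Ifitm1 was -1.63 in all cells and -2.17 in the high cells.

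Some genes of VEGF and apelin signalling and of the basement membrane also rose with stage, where 5.38% of all genes tested passed as higher. Of 19 VEGF, apelin, adrenomedullin and angiopoietin genes 5 rose: Apln, the apelin ligand of sprouting endothelium (1.89, SE 0.283, edgeR adjusted p = 0.0008), Adm (2.13), Esm1, a tip-cell proteoglycan (3.50), Apold1 (2.68) and Adamts1 (0.78). Adm reached no more than 11.1 CPM at E8.0 and 9 CPM in the E9.5 controls, below the E9.5 mutants. The Adamts1 ratio was -0.33 in the cells high in pan-endothelial genes, against 0.65 in all. Of 15 Wnt ligand, secretion and receptor genes 1 passed, no more than the 8.90% of all genes tested that passed in either direction. This was Wnt4, a ligand, at 2.95 to 8.64 CPM at E8.0. At E9.5 Wnt4 was at 39.5, 14.4, 21.7, 37.3 and 58.2 CPM (2.51, SE 0.369, edgeR adjusted p = 0.0008), with no overlap. The Wnt4 ratio was 1.37 in the high cells and 1.82 in all. Of 14 basement membrane genes 7 rose, among them Itga6 (1.39), Nid1 (0.76), Hspg2 (0.74) and Col4a1 (0.57), and Fn1, which encodes fibronectin, fell by 0.63. Fn1 at E8.0 ranged from 407 to 1011 CPM and at E9.5 from 342 to 464 CPM, so the stages overlapped, and its log2 ratio was -0.71 in all cells and -1.05 in the high cells.

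Of the 857 genes, 849 had the same direction among the high cells of the same 11 samples and 560 of these a ratio of at least 0.5 in size. The high cells are part of the cells tested, so agreement in direction was partly fixed beforehand. The other 8 included Col1a2, Adamts1 and P4ha2, with Col1a2 at -0.42 in the high cells against 2.03 in all. Col1a1, and Dkk2, which encodes a secreted modulator of Wnt signalling, kept their sign with ratios of 0.07 and 0.08 against 2.88 and 2.43. The groups did not overlap in 416 of the 857, which were chosen by the same difference. The share over all 9628 genes tested was not counted, so this number has no background. Leaving out Bar19 gave 421 genes, 406 of them among the 857, and leaving out Bar24 gave 554.

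**Figure D5:**
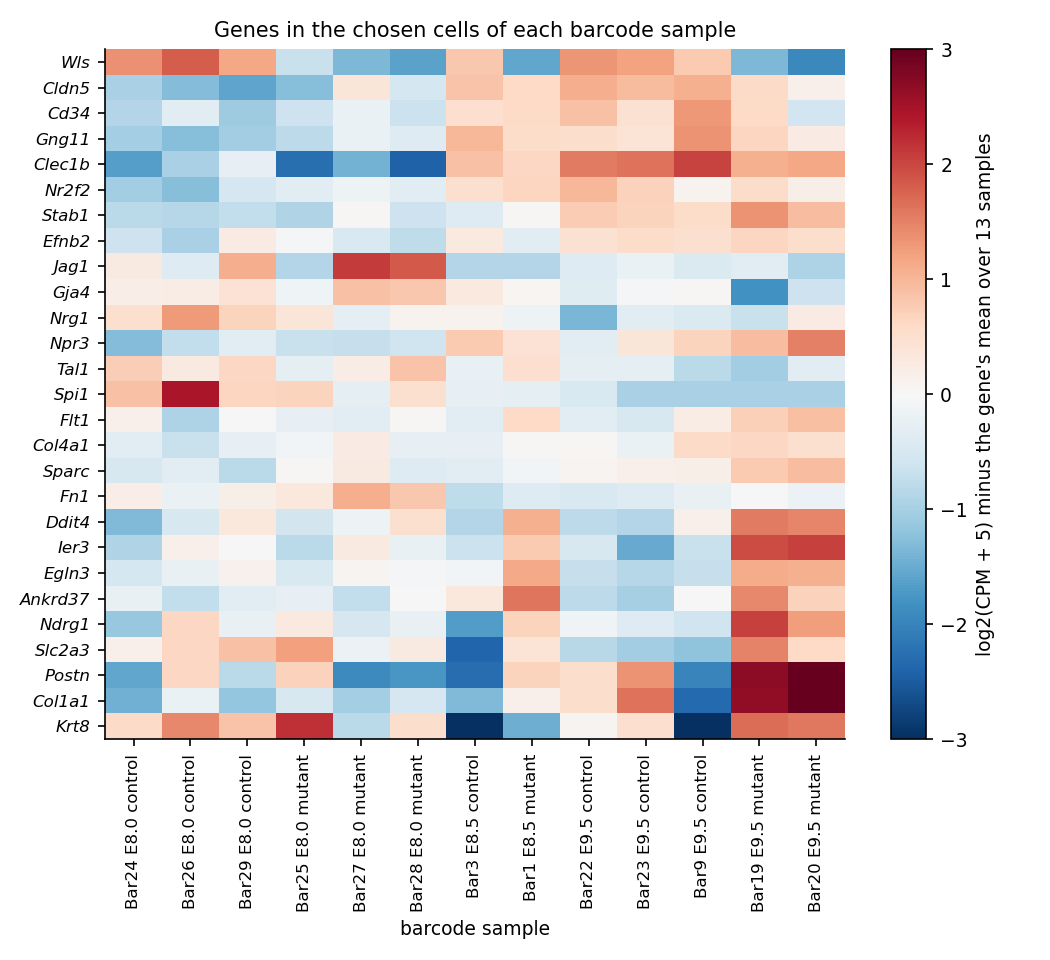
Heat map of genes (rows) in the 13 samples (columns, by stage and genotype), coloured by log2 of CPM plus 5 minus the gene's mean over the samples, with colours ending at 3 in either direction. Wls is low in the 6 mutants, Ddit4, Ier3 and Egln3 are high in the mutants of E8.5 and E9.5, and Cldn5, Clec1b, Nr2f2 and Stab1 are higher in the E9.5 columns than in most or all E8.0 columns.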

How the data were processed

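Raw UMI counts per gene and cell were deposited by the authors as 1 matrix of 14777 cells and 51923 genes with a per-cell table of barcode, stage, genotype and run. Per the submitters' processing notes, kallisto, bustools and Cell Ranger were used with GRCm38, and cell filters are not given in the sources used here. Cells were chosen by the rule given above from those counts, with no further filter. The cells, gene lists and tests were chosen with earlier results of these data known. Doublets were called per run with Scrublet (79 of all cells, 0.535%, and 9 of the 546), and kept. Counts were summed per barcode sample with at least 20 chosen cells and tested with edgeR 4.0.16 in R 4.3.3 (quasi-likelihood F test, filterByExpr, TMM, two-sided, Benjamini-Hochberg over all genes tested, threshold 0.05). Covariates were stage and run for genotype over all stages, run at E9.5, none at E8.0, and genotype for stage. Barcode sample was a block for the comparison with other cells. CPM are UMIs of a gene per 1000000 UMIs of the summed cells. Ratios of group means had 5 CPM added and, in the cells high in pan-endothelial genes, used the samples of the test. Shares were compared by exact permutation of samples, and their exact binomial intervals were made with scipy 1.17.1. Thinning drew 5000 UMIs per cell and left out 447 shallower cells, 365 of controls and 82 of mutants. Clusters were made with scanpy 1.11.5 and leidenalg 0.10.2 from 2000 variable genes, 20 components and 15 neighbours. Genes named were the 12 largest rises and falls per comparison among those that passed with at least 20 CPM in the higher group, list genes that passed, otherwise the highest 2 of a list, and Wls. Other genes, those of leading cluster rank and the Slc2a3, Sparcl1, Vldlr and Kcne3 values included, were named after their values were seen. Gene positions are from GENCODE M21. Alternatives were DESeq2 1.42.0, other filters and marker rules, a male-share covariate (for stage added after seeing the data), run 1 alone and each sample left out in turn.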

Additional observations from a re-analysis of the deposited data

How the results depend on the processing

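Genotype calls at E9.5 (38) numbered 97 with samples of at least 10 cells (36 shared), 23 with DESeq2 (21 shared), 355 with male share as a covariate, 301 with no low-count filter and 267 with the stricter marker rule of 4 markers and a sum of 10, which left 1 mutant sample (19 shared). They ran from 36 to 538 with 1 sample left out, the lowest without Bar9 and the highest without Bar20. Over all stages (1 call) DESeq2 gave 18, DESeq2 size factors in edgeR 3, male share 3, no filter 187 and the stricter rule 24, and leaving out samples gave 1 to 7, the highest without Bar29. At E8.0 (4 calls) DESeq2 gave 22, no filter 145, the stricter rule 37 and leaving out samples 2 to 7. The stage difference of the genotype effect (0 calls) gave 4 with DESeq2, 162 with no filter, 28 with the stricter rule and 0 to 13 with samples left out, the highest without Bar25. Against other cells (0 calls) it gave 1 with at least 10 cells, 1 with DESeq2, 19 with no filter and 0 to 1 with samples left out, 1 being without Bar28. Stage calls (857) numbered 549 with male share as a covariate, added after seeing the data (491 shared), and 421 to 874 with samples left out. The share difference by genotype (0.0042 in log2 odds) was -0.16 under the looser rule, -0.0177 over cells within the limits, 0.46 after thinning, 0.33 in run 1 alone, and -0.15 to 0.21 with samples left out. The share difference by stage was -2.43 under the looser rule, -0.53 after thinning and -1.71 to -1.40 with samples left out. Adamts1 by stage turned to -0.24 under the stricter rule. The cause of these moves was not tested. Among named genes at E9.5, 127 of 150 gene and setting combinations and 94 of 110 with a sample left out kept direction and call, and for stage 545 of 603 and 848 of 987. Calls from the other runs alone at E9.5 could not be fitted. No paired analysis was possible because the barcodes carry no replicate numbers shared between genotypes.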

Other observations

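Cluster 10 held 18 cells, all from mutant Bar27 at E8.0, and was led by the water channel Aqp8, by Plac1 and Nrk, known from placenta, and by Rsad2 and Cmpk2, a pair of interferon-induced genes. With 1 sample it cannot be told apart from that sample. The cells of cluster 9, led by Runx1, Gata1, Plek and Fermt3, came from E8.0 in 21 of 24 cases, 16 in controls and 5 in mutants, and 8 of them were in Bar26. That sample also had the highest summed level of megakaryocyte and myeloid markers, 221 CPM against 22.4 to 102 in the other 12.

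Lyve1, a hyaluronan receptor of lymphatic endothelium, stood at 239 CPM in mutant Bar20 and at 0 to 45.8 CPM in the other 12 samples, so its fitted difference in the genotype effect between stages rests on Bar20, and it did not pass. The 4 genes lower in E9.5 mutants were Wls, Col2a1, Nr2f1 and Dct. For Nr2f1 the log2 ratio was -1.17 in all cells and -0.79 in the cells high in pan-endothelial genes of the same 5 samples. Control and mutant samples overlapped in Nr2f1 (81.1, 83.7 and 19.7 CPM against 13.7 and 35.3 CPM) and in Col2a1 (37.5, 49.5 and 3.95 CPM against 3.73 and 12.5 CPM). Dct, an enzyme of melanin synthesis, was detected in every sample, at 245 to 855 CPM at E8.0, at 588, 382 and 178 CPM in the E9.5 controls and at 212 and 204 CPM in the E9.5 mutants, so those groups overlapped. It stood at 456 CPM in the cells high in pan-endothelial genes and 316 CPM in the low ones. Etv2 stood at 320, 377 and 69.1 CPM in the E9.5 controls and 174 and 62.4 CPM in the mutants, with Bar9 of run 3 near Bar20.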
